A study of Mus musculus with 10 samples.

Results

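The genes described here are 8 members of the machinery that writes, maintains and reads DNA methylation: Dnmt1, Uhrf1, Hells, Dnmt3a, Dnmt3b, Mbd1, Mbd2 and Mbd3. A member was taken through every probe set whose only gene symbol was that gene, which gave 20 probe sets. Each gene is described by its brightest probe set (by mean over the 10 arrays), and the others are given beside it. All 8 were found among the 12393 genes of the series.

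RNA of mouse intestinal epithelium was measured on 10 Affymetrix mouse 430A 2.0 arrays, 2 for each of 5 groups, and every mouse was C57BL/6. Villus enterocytes (ENT) came from Atoh1-/- mice, which make no secretory cells. Crypt secretory progenitors (Sec-Pro) were enriched either by giving mice dibenzazepine, an inhibitor of Notch signalling (DBZ Sec-Pro), or by deleting Rbpj, the DNA-binding factor of the Notch pathway (Rbpj Sec-Pro). Crypt enterocyte progenitors (Ent-Pro) came, like ENT, from Atoh1-/- mice, so these 2 groups share the deletion. Lgr5+ intestinal stem cells (ISC) came from Lgr5-eGFP-Cre mice and were sorted by green fluorescent protein, while the labels name no sort for the other groups. The labels give no Cre driver for the deletions, no age, and no statement that the arrays of a group are separate animals. The p-values therefore rest on the spread of the deposited samples alone, and that spread may be technical.

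The files hold log2 values, and their precision is limited by the number of arrays. Pearson correlations across genes were 0.982 to 0.995 between the arrays of a group and 0.886 to 0.981 between groups. Marker lists were set against the labels. The mean of 14 secretory markers was 12.44 and 12.48 (log2) in DBZ Sec-Pro and 11.55 and 11.84 in Rbpj Sec-Pro, against 9.61 and 9.76 in ISC. It was 6.18 and 6.71 in ENT and 6.49 and 6.47 in Ent-Pro, where the secretory factor Gfi1 and the goblet cell gene Clca1 lay near background. The mean of 8 enterocyte markers was 13.76 and 13.85 in ENT, 13.24 and 12.72 in DBZ Sec-Pro and 13.80 and 13.61 in Rbpj Sec-Pro. It was 13.25 and 12.95 in Ent-Pro, against 10.73 and 10.66 in ISC. Between ENT and Rbpj Sec-Pro 0 of the 8 differed, where 21% of all genes were higher in ENT and 14.8% lower. In Rbpj Sec-Pro 5 of the 8 were higher than in Ent-Pro, beside 9.37% of all genes. The part of enterocyte RNA in the differences of the Sec-Pro groups was not tested. The mean of 9 stem cell markers was highest in ISC, at 10.66 and 10.47, and that of 10 stromal markers was between 5.28 and 5.70 on every array. The mean of 11 leukocyte markers was 8.08 and 8.30 in ENT, 7.40 and 8.33 in DBZ Sec-Pro, 9.02 and 7.12 in Rbpj Sec-Pro, then 6.57 and 6.43 in Ent-Pro, against 5.66 and 5.87 in ISC, where Ptprc and Cd3g lay near background. Against ISC, 9 of the 11 were higher in ENT, 6 in DBZ Sec-Pro, 8 in Rbpj Sec-Pro and 1 in Ent-Pro. Of all genes, 22.3%, 15.9%, 17.7% and 12.1% were higher in these groups, in that order. Near background means within 1 (log2) of a control for a transcript that mice lack. In such bulk RNA, fewer cells of a type and less RNA per cell cannot be told apart.

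DNA methylation in mammals sits mostly on the cytosine of CG pairs. Dnmt1 copies it onto the new strand behind the replication fork, guided by Uhrf1, which binds CG pairs methylated on the old strand only, and Hells is a chromatin remodeller that opens nucleosomal DNA to the methylating enzymes. Dnmt3a and Dnmt3b set methylation on sites that lack it. Mbd1 and Mbd2 bind methylated CG pairs and recruit repressors, while mammalian Mbd3, a close relative of Mbd2, binds them weakly and is a subunit of the repressive NuRD complex. In mouse intestine, Dnmt1 is known for its role in dividing crypt cells, and villus enterocytes have left the cell cycle.

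Over the 5 groups, 7 of the 8 members differed by limma's moderated F test (Benjamini-Hochberg adjusted p below 0.05), beside 66.1% of all genes. Adjusted p was 4.21e-05 for Dnmt1, 0.000271 for Uhrf1, 0.000192 for Hells, 0.00134 for Dnmt3a, 0.000277 for Dnmt3b, 0.00943 for Mbd1 and 0.000337 for Mbd3. Mbd2 did not pass (adjusted p = 0.215). With most genes of the arrays passing, the members' share is close to that of the array as a whole, and the description below rests on the direction and size of each member's differences.

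**Figure D1:**
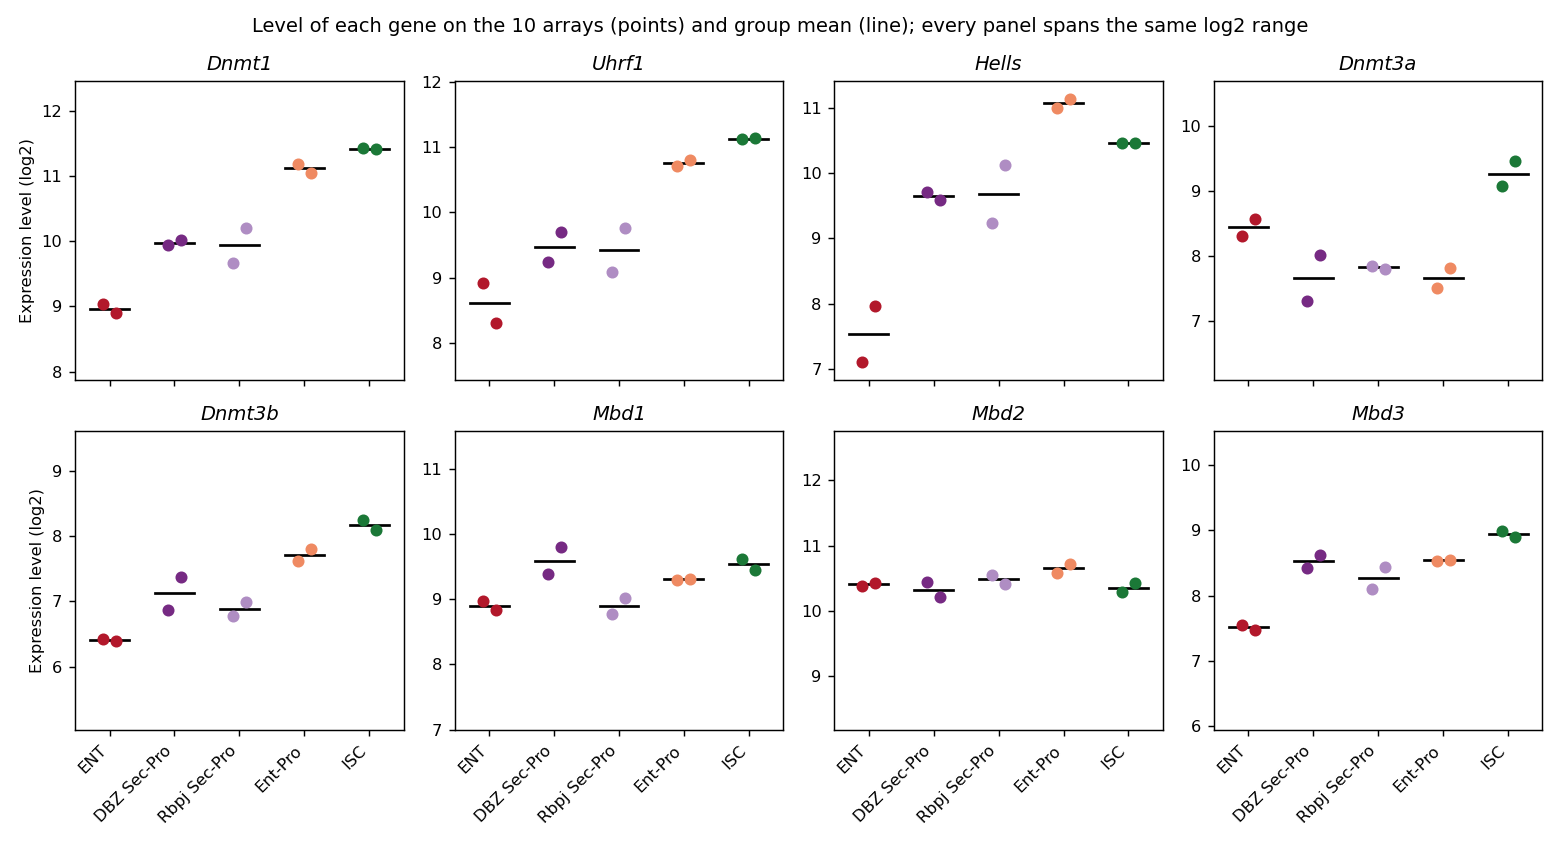
Expression level (log2, vertical axis) of each of the 8 genes on the 10 arrays, by group (horizontal axis); points are arrays, lines are group means of 2 arrays, and every panel spans the same range. Dnmt1, Uhrf1 and Hells are lowest in ENT and highest in Ent-Pro and ISC, Dnmt3a is highest in ISC with ENT next, and Mbd2 lies between 10.20 and 10.72 on every array.

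Dnmt1, Uhrf1 and Hells, the maintenance genes, share one order of the groups apart from its top: ENT lowest, the Sec-Pro groups between, Ent-Pro and ISC highest. Their promoters, which the choice of members did not use, were searched for motifs. The RefSeq promoter table (GRCm38.p6) holds windows of 250 bases before to 50 bases after a transcription start, and 6 members have 11 windows in it. E2F-type motifs were searched on both strands in 3 forms: TTTGGCG, found in 1.56% of all 32851 windows, then TTTCGCG, found in 0.85%, and lastly TTCCCGC, found in 4.6%. At least 1 form occurred in 6.72% of all windows. Each form holds a CG pair, and the member windows with a match hold 12 to 34 such pairs, against a median of 7 over all windows. Among the 13006 windows with at least 12 CG pairs, 13.86% held a match. A match occurred in a window of Dnmt1, Uhrf1 and Hells and in no window of Dnmt3a, Dnmt3b or Mbd3. Dnmt3b and Mbd3, without a match, had the same order of group means as Dnmt1. The shares above are per window, while a gene can have up to 3 windows here. E2F factors are known as regulators of genes used in DNA replication, and a match of letters is a description, not a binding site. The stretches below show where these matches lie, with matches to these motifs and to the CCAAT box in capitals and positions counted from the start.
Dnmt1, chr9:20952754-20952873, minus strand, -250 to -131: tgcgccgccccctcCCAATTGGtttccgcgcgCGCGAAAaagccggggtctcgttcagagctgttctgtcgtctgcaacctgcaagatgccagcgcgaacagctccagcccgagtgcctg
Uhrf1, chr17:56304071-56304190, plus strand, -242 to -123: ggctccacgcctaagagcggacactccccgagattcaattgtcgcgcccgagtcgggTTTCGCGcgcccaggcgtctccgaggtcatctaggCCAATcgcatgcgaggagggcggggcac
Hells, chr19:38930870-38930989, plus strand, -120 to -1: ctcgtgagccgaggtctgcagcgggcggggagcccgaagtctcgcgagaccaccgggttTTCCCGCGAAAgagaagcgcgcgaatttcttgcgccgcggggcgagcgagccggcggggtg
In the Dnmt1 stretch the E2F-type match, TTTCGCG on the opposite strand, is at -218 to -212, and 2 CCAAT matches on opposite strands overlap. The same Dnmt1 window holds TTTGGCG at 34 to 40, inside the transcribed part. The other 2 Dnmt1 windows, at starts further upstream, hold no E2F-type match. The Dnmt1 stretch shown lies downstream of both of those starts, so it is upstream only of the start from which its positions are counted. In Hells 2 matches overlap, TTCCCGC at -61 to -55 and, on the opposite strand, TTTCGCG at -57 to -51. The other Uhrf1 window, at a start further upstream, holds TTCCCGC at -48 to -42. CCAAT was more common, in 37.41% of all windows, and occurred in Dnmt1, Uhrf1 and Mbd3. TGGGAA, the core of sites bound by Rbpj, occurred in 25.56% of all windows and in 1 window each of Dnmt1 and Dnmt3a. TTTGAA, the cell cycle homology region, occurred in 17.89% of all windows and in 1 window each of Dnmt1 and Dnmt3b.

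Dnmt1, the maintenance methyltransferase, measured 9.04 and 8.89 (log2) in ENT, 9.94 and 10.02 in DBZ Sec-Pro, 9.67 and 10.20 in Rbpj Sec-Pro, 11.19 and 11.05 in Ent-Pro and 11.43 and 11.42 in ISC. Only the arrays of the Sec-Pro groups overlapped one another. The level fell 5.50-fold in ENT against ISC (log2 difference -2.46, SE 0.17, adjusted p = 8.67e-06) and 4.45-fold in ENT against Ent-Pro (-2.15, adjusted p = 5.67e-05). It was also lower in the Sec-Pro groups than in ISC, 2.73-fold for DBZ Sec-Pro (adjusted p = 0.000326) and 2.81-fold for Rbpj Sec-Pro (adjusted p = 0.000223). Neighbours in the order that did not pass the test were Ent-Pro and ISC (-0.30, 95% interval -0.69 to 0.09, adjusted p = 0.253) and DBZ and Rbpj Sec-Pro (0.04, interval -0.35 to 0.43, adjusted p = 0.886). The probe set used for Dnmt1 is of a type in which some probes can also match other transcripts. The gene's other probe set gave the same calls in all 10 comparisons, among them -2.11 in ENT against ISC and -2.00 in ENT against Ent-Pro. Sizes differed more for DBZ Sec-Pro, where it gave -0.97 against ISC. In DBZ against Rbpj Sec-Pro it gave 0.54 (adjusted p = 0.0616), above the interval of the probe set used. No call of Dnmt1 was lost when any 1 array was left out.

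Uhrf1, the reader of hemimethylated DNA that brings Dnmt1 to the fork, measured 8.91 and 8.30 in ENT, 9.24 and 9.69 in DBZ Sec-Pro, 9.08 and 9.77 in Rbpj Sec-Pro, 10.71 and 10.80 in Ent-Pro and 11.13 and 11.14 in ISC. Both ISC arrays stood above all others, both Ent-Pro arrays came next, and the Sec-Pro groups overlapped each other. Uhrf1 fell 5.77-fold in ENT against ISC (-2.53, SE 0.27, adjusted p = 6.69e-05) and 4.43-fold in ENT against Ent-Pro (-2.15, adjusted p = 0.000327). Against ISC it was 3.17-fold lower in DBZ Sec-Pro (adjusted p = 0.00141) and 3.27-fold lower in Rbpj Sec-Pro (adjusted p = 0.00100). The gene's other probe set also made these calls, at smaller sizes. It gave -1.13 in ENT against ISC and -1.32 in ENT against Ent-Pro, then -1.047 in DBZ and -1.004 in Rbpj Sec-Pro against ISC. Ent-Pro and ISC did not pass the test (-0.38, interval -0.98 to 0.23, adjusted p = 0.369), and the gene's other probe set had the opposite sign there, at 0.19.

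Against Ent-Pro, Uhrf1 was 2.44-fold lower in DBZ Sec-Pro (adjusted p = 0.0112) and 2.52-fold lower in Rbpj Sec-Pro (adjusted p = 0.0106), calls that the other probe set also made. With the probe set used, both were lost without either Ent-Pro array (adjusted p = 0.0547 to 0.0689), and the first also without DBZ Sec-Pro replicate 1 (adjusted p = 0.0693). It was 1.82-fold lower in ENT than in DBZ Sec-Pro (adjusted p = 0.0271) and 1.76-fold lower than in Rbpj Sec-Pro (adjusted p = 0.0414). The other probe set gave -0.08 and -0.13 for these 2 comparisons and passed in neither. The first call was lost without DBZ Sec-Pro replicate 2 or ENT replicate 2 (adjusted p = 0.171 and 0.176). The second was lost without any 1 of 6 arrays, with adjusted p up to 0.230 without ENT replicate 2, and both were lost when arrays were centred on their medians (adjusted p = 0.0545 and 0.0668).

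Hells, the chromatin remodeller also called Lsh, measured 7.10 and 7.97 in ENT, 9.71 and 9.59 in DBZ Sec-Pro, 9.23 and 10.13 in Rbpj Sec-Pro, 11.01 and 11.14 in Ent-Pro and 10.46 and 10.46 in ISC. Both Ent-Pro arrays were above both ISC arrays, a difference that did not pass the test (0.61, interval -0.11 to 1.34, adjusted p = 0.213) but passed in a fit of these 4 arrays alone (adjusted p = 0.0107). Its fall in ENT was the largest difference of any member in any comparison, 11.6-fold against Ent-Pro (-3.54, SE 0.32, adjusted p = 8.25e-05) and 7.61-fold against ISC (-2.93, adjusted p = 8.07e-05). ENT also lay 4.34-fold below DBZ Sec-Pro (adjusted p = 0.000855) and 4.44-fold below Rbpj Sec-Pro (adjusted p = 0.00159). These 4 calls held without any 1 array.

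Hells did not pass in the Sec-Pro groups against ISC. The difference was -0.81 in DBZ Sec-Pro (interval -1.54 to -0.08, adjusted p = 0.0793) and -0.78 in Rbpj Sec-Pro (interval -1.50 to -0.05, adjusted p = 0.0745). Both intervals lie below 0. Single arrays moved these values both ways. The second difference was -0.33 without Rbpj Sec-Pro replicate 1 (adjusted p = 0.417) and -1.23 without replicate 2 (adjusted p = 0.00966). Without either ISC array neither passed (adjusted p = 0.190 to 0.217). Without either ENT array both passed (adjusted p = 0.0436 for DBZ and 0.0410 for Rbpj Sec-Pro), as did the first without either Rbpj Sec-Pro array (adjusted p = 0.0276). Whether Hells differed there from Dnmt1 or Uhrf1 was not tested. Against Ent-Pro, Hells was 2.68-fold lower in DBZ Sec-Pro (adjusted p = 0.0159) and 2.62-fold lower in Rbpj Sec-Pro (adjusted p = 0.0171). Both of these calls were lost without either Ent-Pro array (adjusted p = 0.0709 to 0.0889). The first was also lost without either DBZ Sec-Pro array and the second without Rbpj Sec-Pro replicate 1 (-0.94, adjusted p = 0.0752).

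Dnmt3a, one of the enzymes that set new methylation, did not follow this order. It measured 8.32 and 8.58 in ENT, 7.31 and 8.01 in DBZ Sec-Pro, 7.85 and 7.81 in Rbpj Sec-Pro, 7.51 and 7.82 in Ent-Pro and 9.07 and 9.47 in ISC. Both ISC arrays were highest, both ENT arrays came next, and the 3 crypt progenitor groups overlapped. Against ISC, Dnmt3a was 3.05-fold lower in Ent-Pro (-1.61, SE 0.24, adjusted p = 0.00178), 3.05-fold lower in DBZ Sec-Pro (adjusted p = 0.000994) and 2.71-fold lower in Rbpj Sec-Pro (adjusted p = 0.00136). It was the only member called in Ent-Pro against ISC, where 13.5% of all genes were called lower. A fit of those 4 arrays alone called 5 members, beside 3802 of all 12393 genes in either direction. It added 3 that were lower, Uhrf1 (-0.38, adjusted p = 0.0444), Dnmt3b (-0.46, adjusted p = 0.0403) and Mbd3 (-0.41, adjusted p = 0.0351). It also added Hells, which was higher (0.61, adjusted p = 0.0107). In ENT Dnmt3a was 1.77-fold lower than in ISC (-0.83, adjusted p = 0.0180), a call lost without ISC replicate 2 or ENT replicate 1 and under both other scalings of the arrays (adjusted p = 0.0652 and 0.0784). ENT lay 1.72-fold above Ent-Pro (0.78, adjusted p = 0.0290) and 1.72-fold above DBZ Sec-Pro (0.78, adjusted p = 0.0258). The call against Ent-Pro was lost without any 1 of the 4 arrays compared (adjusted p = 0.0529 to 0.165), and that against DBZ Sec-Pro without DBZ Sec-Pro replicate 1 or ENT replicate 2 (adjusted p = 0.164 and 0.131).

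The 5 probe sets of Dnmt3a disagreed. The one with the highest mean (8.18 over all arrays) stood barely above the next (8.17), which gave -0.91 in Ent-Pro (adjusted p = 0.0200), -1.03 in DBZ Sec-Pro (adjusted p = 0.00815) and -1.79 in Rbpj Sec-Pro (adjusted p = 0.000399) against ISC. By that second probe set, ENT against Ent-Pro was 0.29 and did not pass (adjusted p = 0.384). Another (mean 7.68) gave the opposite sign in ENT against Ent-Pro, -0.65 (adjusted p = 0.0184), and in ENT against DBZ Sec-Pro, -0.62 (adjusted p = 0.0198). The remaining 2 varied by only 0.50 and 0.53 over all 10 arrays, and of their 20 differences 1 passed, 0.39 in ENT against DBZ Sec-Pro (adjusted p = 0.0415). The sign of Dnmt3a in ENT against Ent-Pro and against DBZ Sec-Pro thus depended on the probe set. Against Rbpj Sec-Pro all 5 probe sets placed ENT higher, by 0.075 to 1.17, and the second passed there (1.17, adjusted p = 0.00560), while the probe set used gave 0.61 (adjusted p = 0.0739). The lower level in the 3 progenitor groups than in ISC was called by the first 2 probe sets, and in Rbpj Sec-Pro by the probe set of mean 7.68 as well (-0.86, adjusted p = 0.00444).

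**Figure D2:**
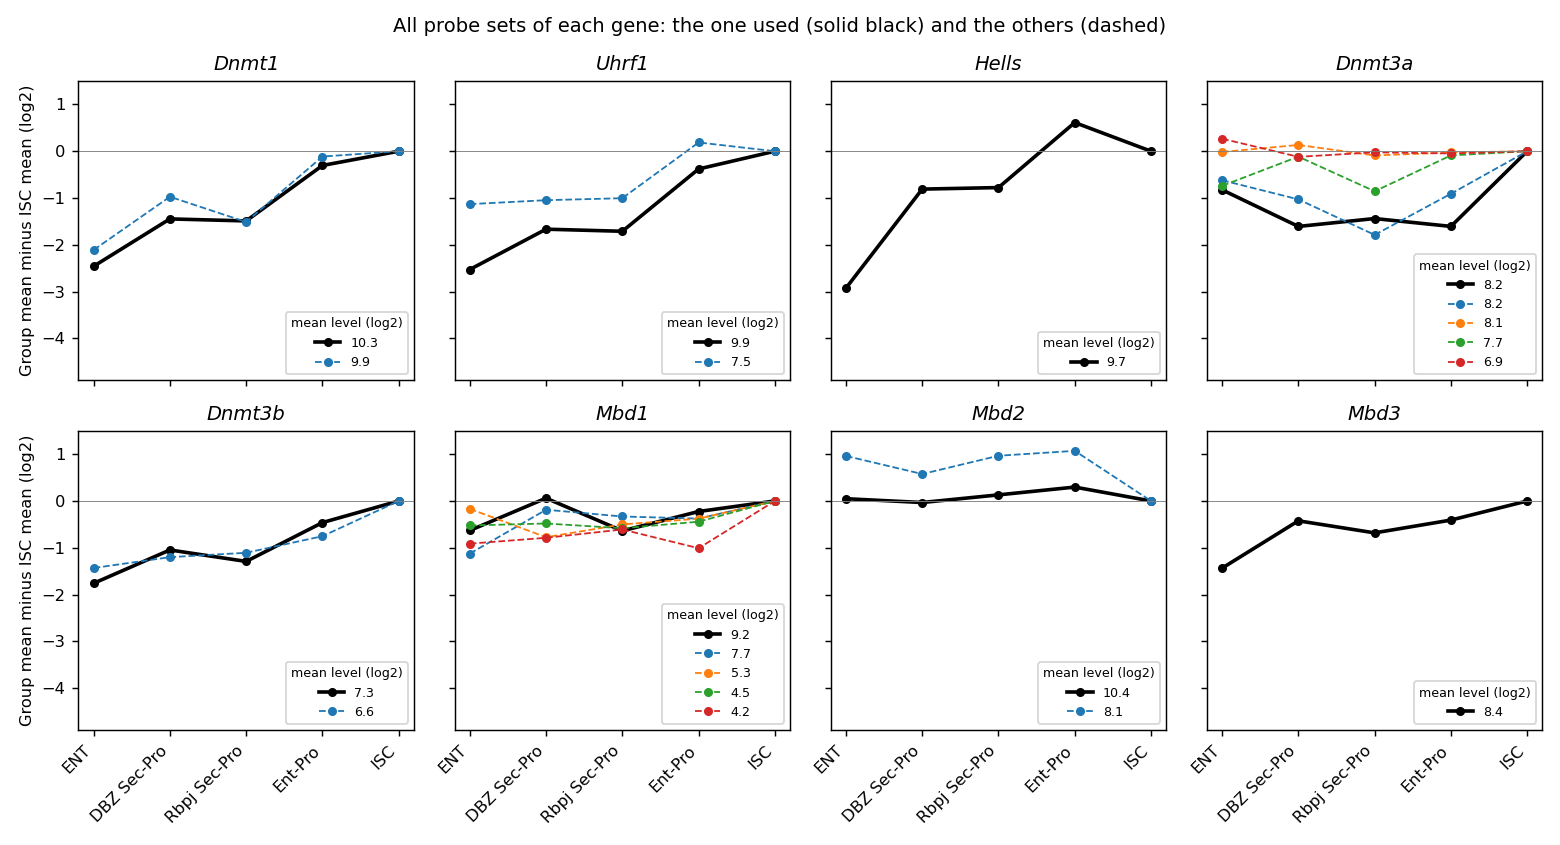
Group mean minus ISC mean (log2, vertical axis) by group (horizontal axis) for every probe set of each gene; the solid black line is the probe set used, dashed lines are the others, and legends give each one's mean level over the 10 arrays. All lines of Dnmt1 and Dnmt3b lie below ISC in every other group. Those of Dnmt1 stand at -1.45 and -0.97 in DBZ Sec-Pro, and those of Uhrf1 at -2.53 and -1.13 in ENT. The lines of Dnmt3a spread between -1.79 and 0.27, and the second Mbd2 probe set lies 0.58 to 1.07 above ISC in every other group.

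Dnmt3b, the other enzyme of new methylation, followed the order seen for Dnmt1. It measured 6.43 and 6.40 in ENT, 6.87 and 7.38 in DBZ Sec-Pro, 6.77 and 6.99 in Rbpj Sec-Pro, 7.62 and 7.81 in Ent-Pro and 8.25 and 8.10 in ISC. No neighbouring pair of groups in this order passed the test, while groups further apart did. Dnmt3b was 3.39-fold lower in ENT (-1.76, SE 0.18, adjusted p = 5.33e-05), 2.07-fold lower in DBZ Sec-Pro (adjusted p = 0.00194) and 2.45-fold lower in Rbpj Sec-Pro (adjusted p = 0.000531) than in ISC. It was 2.46-fold lower in ENT than in Ent-Pro (-1.30, adjusted p = 0.000529). Its second probe set made the same 4 calls. In Ent-Pro against ISC the probe set used gave -0.46 (interval -0.87 to -0.06, adjusted p = 0.0945) and the second gave -0.75 (adjusted p = 0.0102).

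The remaining calls of Dnmt3b rested on single arrays. It was 1.78-fold lower in Rbpj Sec-Pro than in Ent-Pro (adjusted p = 0.0134), a call lost without Rbpj Sec-Pro replicate 1 or either Ent-Pro array (adjusted p = 0.0513 to 0.0876). It was 1.64-fold lower in ENT than in DBZ Sec-Pro (adjusted p = 0.0106), a call lost without DBZ Sec-Pro replicate 2 (adjusted p = 0.0727). The second probe set passed in neither.

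Mbd3, the NuRD subunit, measured 7.55 and 7.47 in ENT, 8.43 and 8.62 in DBZ Sec-Pro, 8.09 and 8.44 in Rbpj Sec-Pro, 8.53 and 8.55 in Ent-Pro and 8.99 and 8.91 in ISC. The ENT arrays lay below all others, the ISC arrays above all others, and the progenitor groups close together. Mbd3 fell 2.71-fold in ENT against ISC (-1.44, SE 0.14, adjusted p = 4.82e-05) and 2.04-fold in ENT against Ent-Pro (-1.03, adjusted p = 0.000558). ENT was also 2.02-fold below DBZ Sec-Pro (adjusted p = 0.000604) and 1.69-fold below Rbpj Sec-Pro (adjusted p = 0.00440). Against ISC, Mbd3 was 1.60-fold lower in Rbpj Sec-Pro (adjusted p = 0.00439) and 1.34-fold lower in DBZ Sec-Pro (adjusted p = 0.0449). The last call was lost without any 1 of 8 arrays (adjusted p up to 0.208, without DBZ Sec-Pro replicate 1), and with cyclic loess scaling it had an adjusted p of 0.157.

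Mbd1, a reader that carries a methyl-binding domain and CXXC zinc fingers, had smaller differences. It measured 8.97 and 8.84 in ENT, 9.39 and 9.80 in DBZ Sec-Pro, 8.77 and 9.02 in Rbpj Sec-Pro, 9.30 and 9.32 in Ent-Pro and 9.62 and 9.45 in ISC. The ENT and Rbpj Sec-Pro arrays overlapped at the low end and the DBZ Sec-Pro and ISC arrays at the high end. Mbd1 was 1.55-fold lower in ENT (-0.63, SE 0.16, adjusted p = 0.0106) and 1.56-fold lower in Rbpj Sec-Pro (-0.64, adjusted p = 0.0117) than in ISC. It was the only member that differed between the 2 ways of making Sec-Pro, 1.62-fold higher in DBZ than in Rbpj Sec-Pro (0.70, adjusted p = 0.0242), beside 9.34% of all genes called higher there. That call was lost without Rbpj Sec-Pro replicate 1 or DBZ Sec-Pro replicate 2 (adjusted p = 0.101 and 0.145). Of its 4 other probe sets none made it, and 2 had the opposite sign, -0.27 and -0.18.

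The calls of Mbd1 against ISC also rested on few arrays. That for ENT was lost without ISC replicate 1 or ENT replicate 2 (adjusted p = 0.0695 and 0.0636) and when arrays were centred on their medians (-0.38, adjusted p = 0.0550), and that for Rbpj Sec-Pro without ISC replicate 1 or Rbpj Sec-Pro replicate 1 (adjusted p = 0.0714 and 0.0634). The brightest other probe set of Mbd1 (mean 7.69) placed ENT lowest, at -1.12 against ISC (adjusted p = 0.000353) and -0.75 against Ent-Pro (adjusted p = 0.00539). The other 3 had means of 5.27, 4.50 and 4.21, not far above the absent transcript control, which reached 3.70 to 4.05 on the arrays. ENT was 1.61-fold lower than DBZ Sec-Pro (adjusted p = 0.00819), a call lost without DBZ Sec-Pro replicate 2 or ENT replicate 2.

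Mbd2, the reader that links methylated DNA to a form of NuRD, was measured at 10.37 and 10.43 in ENT, 10.44 and 10.20 in DBZ Sec-Pro, 10.55 and 10.42 in Rbpj Sec-Pro, 10.58 and 10.72 in Ent-Pro and 10.29 and 10.42 in ISC. The arrays of ENT and of both Sec-Pro groups overlapped those of ISC. None of its 10 differences passed. Against ISC the intervals were -0.25 to 0.35 for ENT, -0.33 to 0.27 for DBZ Sec-Pro, -0.17 to 0.43 for Rbpj Sec-Pro and -0.0016 to 0.60 for Ent-Pro. Its second probe set, of a type whose probes match several transcripts of 1 gene, was higher than ISC in every group. It measured 8.33 and 8.37 in ENT, 8.21 and 7.72 in DBZ Sec-Pro, 8.44 and 8.27 in Rbpj Sec-Pro, then 8.44 and 8.48 in Ent-Pro, against 7.30 and 7.48 in ISC. No array of ISC reached the lowest array of the other groups. The differences were 0.96 in ENT (adjusted p = 0.00109), 0.58 in DBZ Sec-Pro (adjusted p = 0.0243), 0.97 in Rbpj Sec-Pro (adjusted p = 0.00159) and 1.07 in Ent-Pro (adjusted p = 0.00210). Whether the probe sets read different transcripts of Mbd2 was not tested.

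By comparison, most members were lowest in ENT. In ENT against ISC 7 of 8 were lower and 0 higher, beside 26.8% of all genes lower and 22.3% higher. The median member difference there was -1.60, against -0.01 over all genes. In ENT against Ent-Pro, which share the Atoh1 deletion, 5 were lower and 1 higher, beside 20.2% and 18.5% of all genes, with a median of -1.16 against 0.02. In Ent-Pro against ISC 1 was lower and 0 higher, beside 13.5% and 12.1%. The median there was -0.34 against -0.02, and Dnmt1, Uhrf1, Hells, Dnmt3b and Mbd3 differed by between -0.46 and 0.61. The 1 call was Dnmt3a, and without any 1 Sec-Pro array the count was 2, with Dnmt3b (adjusted p = 0.0434) or Mbd3 (adjusted p = 0.0313) added.

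Both Sec-Pro groups lay below ISC in most members. In Rbpj Sec-Pro 6 were lower and 0 higher than in ISC, beside 29.4% and 17.7% of all genes, with a median of -1.03 against -0.14. In DBZ Sec-Pro 5 were lower and 0 higher, beside 20.3% and 15.9%, with a median of -0.93 against -0.09. Against Ent-Pro, 4 were lower in Rbpj Sec-Pro (16.9% of all genes lower, 9.37% higher) and 3 in DBZ Sec-Pro (9.77% lower, 8.84% higher), and 0 were higher in either. The first count was 2 without Rbpj Sec-Pro replicate 1 and 1 without either Ent-Pro array, and the second was 1 without DBZ Sec-Pro replicate 1 or either Ent-Pro array. Fitted on the 4 arrays of Rbpj Sec-Pro and Ent-Pro alone, 0 members passed, with adjusted p of 0.0501 to 0.0659 for the same 4. ENT lay below Rbpj Sec-Pro in 4 members (14.8% of all genes lower, 21% higher) and below DBZ Sec-Pro in 6, with Dnmt3a higher (21.9% lower, 23.3% higher), and these 7 calls became 4 without DBZ Sec-Pro replicate 2 or ENT replicate 2. Between DBZ and Rbpj Sec-Pro 0 members were lower (7.08% of all genes). For the maintenance genes, by the probe set used, the intervals were -0.35 to 0.43 for Dnmt1, -0.56 to 0.65 for Uhrf1 and -0.76 to 0.69 for Hells. The other Dnmt1 probe set gave 0.54 there and did not pass (adjusted p = 0.0616). The comparisons with ISC share its 2 arrays, so they are not independent of each other.

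**Figure D3:**
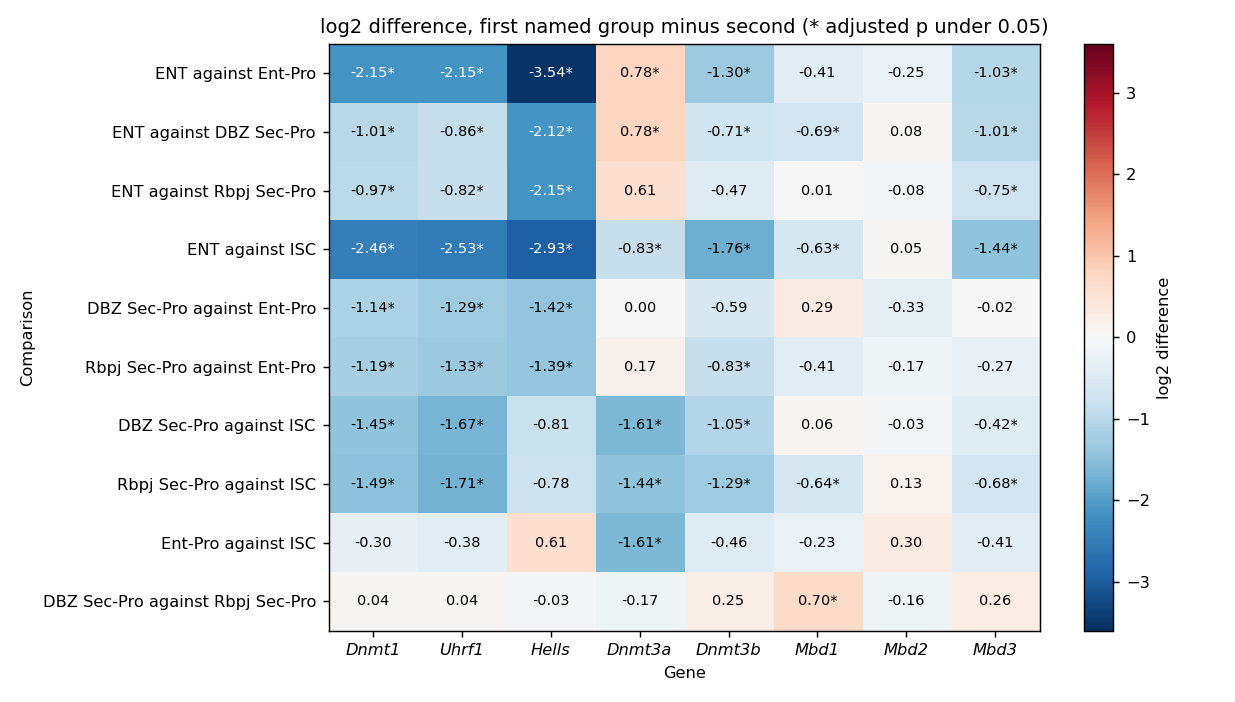
Map of the log2 difference of each gene (columns) in each of the 10 comparisons (rows), first named group minus second, with red for higher and blue for lower; an asterisk marks an adjusted p below 0.05. The top 4 rows, ENT against each other group, are blue for Dnmt1, Uhrf1, Hells, Dnmt3b and Mbd3, down to -3.54 for Hells, and red in 3 of 4 for Dnmt3a.

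The 2 Rbpj Sec-Pro arrays differed from each other in the maintenance genes. Replicate 2 minus replicate 1 was 0.53 for Dnmt1, 0.69 for Uhrf1, 0.90 for Hells and 0.34 for Mbd3, beside a median absolute gap of 0.21 over all genes. On the same pair, the mean of the stem cell markers differed by 0.91, that of a proliferation list by 0.51 and that of the leukocyte markers by -1.90. The part of leukocyte RNA in these gaps was not tested. Without replicate 1, the array with the higher leukocyte level, the differences from ISC were -1.22 for Dnmt1 (adjusted p = 0.000579), -1.37 for Uhrf1 (adjusted p = 0.00463), -1.46 for Dnmt3a (adjusted p = 0.00614) and -1.19 for Dnmt3b (adjusted p = 0.00341). Hells was then -0.33 (adjusted p = 0.417, against -0.78 with both arrays). Mbd1 lost its call (-0.51, adjusted p = 0.0634), and Mbd3 kept it (-0.51, adjusted p = 0.0240). The DBZ Sec-Pro arrays differed by 0.70 in Dnmt3a, 0.51 in Dnmt3b and 0.45 in Uhrf1, replicate 2 minus 1, and by 0.92 in the leukocyte mean. The ENT arrays, at near equal proliferation means, differed by 0.87 in Hells and -0.61 in Uhrf1.

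Cell division moves with the same groups, so the members were set beside 28 measured proliferation genes (helicase subunits, cyclins, nucleotide synthesis enzymes and the like). The mean of that list was 8.20 and 8.19 in ENT, 9.23 and 9.28 in DBZ Sec-Pro, 9.06 and 9.57 in Rbpj Sec-Pro, 10.20 and 10.10 in Ent-Pro and 9.96 and 9.86 in ISC. Over the 10 arrays, which fall into 5 groups, Pearson correlation with that mean was 0.98 for Hells, 0.95 for Dnmt1, 0.92 for Uhrf1, 0.89 for Mbd3 and 0.88 for Dnmt3b. It was 0.57 for Mbd1, 0.30 for Mbd2 and -0.03 for Dnmt3a. Every r here is of the probe set used. The 5 probe sets of Dnmt3a disagreed, also in the sign of ENT against Ent-Pro, and r by its other probe sets was not computed. Whether Dnmt3a runs apart from proliferation whichever probe set is taken was thus not tested. These are descriptions over arrays that share their groups. Members also ran together, with r of 0.99 between Dnmt1 and Uhrf1, 0.96 between Dnmt1 and Dnmt3b and 0.97 between Uhrf1 and Dnmt3b. The r of Dnmt3a with each other member was between -0.39 and 0.40.

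**Figure D4:**
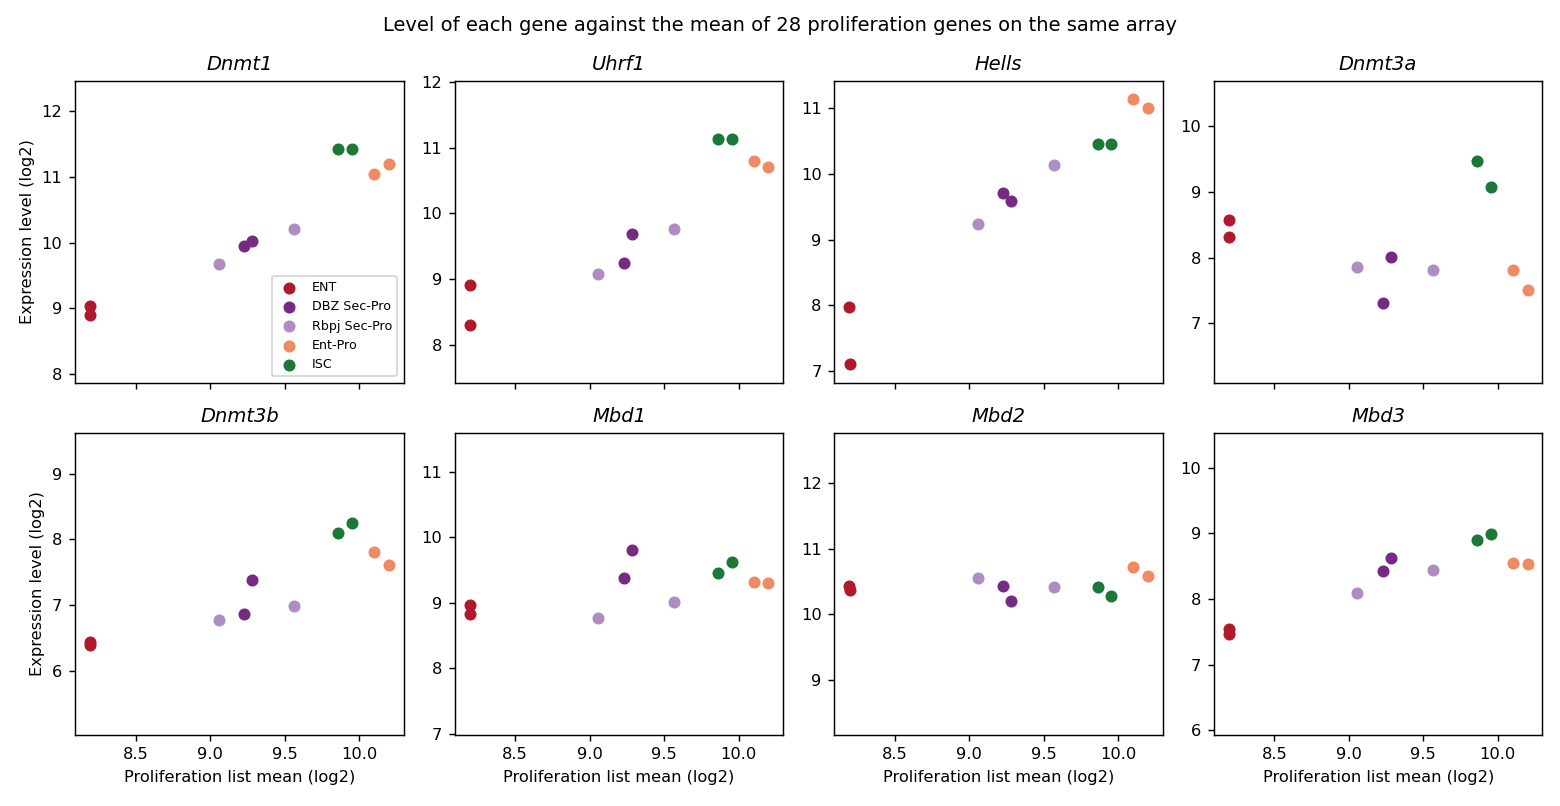
Level of each gene (log2, vertical axis) against the mean of 28 proliferation genes on the same array (log2, horizontal axis), with 1 point per array coloured by group. Points of Hells (r = 0.98) and Dnmt1 (r = 0.95) rise from left to right, and those of Dnmt3a (r = -0.03), by the probe set used, do not. By the probe set used, the ISC points of Dnmt1, Uhrf1 and Dnmt3b stand above the Ent-Pro points although their proliferation mean is lower. In the fit of all arrays none of these differences passed. Other probe sets gave -0.11 for Dnmt1, 0.19 for Uhrf1 and -0.75 for Dnmt3b in Ent-Pro against ISC, and only the last passed.

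In ENT against Ent-Pro, 27 of the 28 proliferation genes were lower and 0 higher, beside 20.2% and 18.5% of all genes. Their median was -2.03, and the lower ones included the helicase subunits Mcm4 (-2.40) and Mcm7 (-2.24). The mean of the list moved by -1.96, close to Dnmt1 (-2.15) and Uhrf1 (-2.15), while Hells fell further by 1.58. The other probe sets gave -1.996 for Dnmt1 and -1.32 for Uhrf1. By the probe sets used, the match was less close against ISC. The list mean differed by -0.65 in DBZ Sec-Pro and -0.60 in Rbpj Sec-Pro, and Uhrf1 lay 1.01 and 1.11 below that, Dnmt1 0.79 and 0.89 below, and Hells 0.16 and 0.18 below. The other Uhrf1 probe set differed from ISC by -1.047 in DBZ Sec-Pro and -1.004 in Rbpj Sec-Pro, nearer the list mean. That of Dnmt1 gave -0.97 and -1.51, nearer in DBZ Sec-Pro only. In Ent-Pro against ISC, 5 of the 28 were higher and 1, E2f1, was lower, beside 12.1% and 13.5% of all genes. The list mean was 0.24 higher. By the probe sets used, Dnmt1 lay 0.55, Uhrf1 0.62, Dnmt3b 0.70, Mbd3 0.65 and Dnmt3a 1.85 below that list mean, and Hells 0.37 above it. Other probe sets differed from ISC there by 0.19 for Uhrf1, close to the list mean, -0.11 for Dnmt1 and -0.75 for Dnmt3b. Those of Dnmt3a gave -0.91 to -0.03. None of these gaps to the list was tested. In both Sec-Pro groups against ISC 0 proliferation genes were higher, with 18 lower in DBZ Sec-Pro and 14 in Rbpj Sec-Pro. Of all genes, 20.3% and 29.4% were lower there, and 15.9% and 17.7% higher.

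Genes that work with the members were described by list. For these counts, the shares of all genes called lower and higher were 20.2% and 18.5% in ENT against Ent-Pro, 20.3% and 15.9% in DBZ Sec-Pro against ISC, 29.4% and 17.7% in Rbpj Sec-Pro against ISC and 13.5% and 12.1% in Ent-Pro against ISC. Of 10 measured partners of maintenance methylation at the replication fork, all 10 were lower in ENT than in Ent-Pro, with a median of -1.46 against 0.02 over all genes. They included the polymerase clamp Pcna (-1.42, adjusted p = 0.000507), its binding protein Pclaf (-2.01, adjusted p = 0.000157), the clamp loader subunit Rfc1 (-1.95, adjusted p = 0.000186) and the chromatin assembly factor Chaf1b (-1.39, adjusted p = 0.000383). Against ISC, 6 were lower in DBZ Sec-Pro and 7 in Rbpj Sec-Pro, with 0 higher in both. In both, the 3 with the smallest p were Chaf1b (-1.65 in DBZ and -1.37 in Rbpj Sec-Pro), Cdca7l (-1.50 and -1.60), a relative of the Hells partner Cdca7, and the ligase Lig1 (-1.21 and -1.07). In Ent-Pro against ISC 2 were lower, Chaf1b (-0.73, adjusted p = 0.0167) and Dmap1 (-0.62, adjusted p = 0.0196), a Dnmt1-binding protein, and Pcna was higher (0.87, adjusted p = 0.0106).

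Of 8 measured demethylation genes, 3 were lower and 3 higher in ENT than in Ent-Pro, beside 20.2% and 18.5% of all genes. The base excision repair enzymes Apex1 (-1.95, adjusted p = 0.000341) and Parp1 (-1.57, adjusted p = 0.000525) were lower. The stress-induced Gadd45a (1.63, adjusted p = 0.000980) and Gadd45g (1.67, adjusted p = 0.00163), linked to demethylation in some systems, were higher. In Ent-Pro against ISC 5 of the 8 were lower and 0 higher, led by Gadd45b (-1.65, adjusted p = 0.000608) and Mbd4 (-1.50, adjusted p = 0.00109), the glycosylase that repairs mismatches at methylated CG pairs. In DBZ Sec-Pro against ISC 3 were higher and 4 lower, among the lower Mbd4 (-1.87, adjusted p = 0.000182). The 3 higher, named after their values were seen, were Gadd45a (1.33, adjusted p = 0.00343), Gadd45g (1.40, adjusted p = 0.00472) and Parp1 (0.84, adjusted p = 0.0142). In Rbpj Sec-Pro 0 were higher and 3 lower, Mbd4 (-1.83), Xrcc1 (-1.18) and Apex1 (-1.42). The only Tet gene measured, Tet1, which oxidises methylated cytosine, lay near background in ENT, DBZ Sec-Pro and ISC.

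Of 11 measured genes of methyl donor supply, 6 were lower and 1 higher in ENT than in Ent-Pro, beside 20.2% and 18.5% of all genes. The serine hydroxymethyltransferases Shmt2 (-2.39, adjusted p = 4.83e-05) and Shmt1 (-1.49, adjusted p = 0.000190) fell, as did Mthfd1 (-1.88, adjusted p = 0.000112), which passes on their one-carbon units. Against ISC, 6 were lower in each Sec-Pro group, while 1 was higher in DBZ Sec-Pro and 2 in Rbpj Sec-Pro. Among the lower, Shmt1 was at -2.52 in DBZ Sec-Pro (adjusted p = 2.36e-05) and -1.78 in Rbpj Sec-Pro (adjusted p = 9.26e-05). Mat2b, the regulatory subunit of the enzyme that makes S-adenosylmethionine, was higher than in ISC by 1.85 in DBZ Sec-Pro (adjusted p = 0.000120), 1.40 in Rbpj Sec-Pro (adjusted p = 0.000351) and 1.74 in Ent-Pro (adjusted p = 0.000353). Shmt2 was lower in Ent-Pro than in ISC (-0.80, adjusted p = 0.00864) and no other gene of the list was. Mat1a and Bhmt, known from liver, lay near background on every array.

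Other subunits of NuRD, the complex of Mbd3, were mostly lower where they passed. Of 11 measured, 8 were lower and 0 higher in ENT than in ISC, beside 26.8% and 22.3% of all genes. In ENT against Ent-Pro 5 were lower and 2 higher, beside 20.2% and 18.5% of all genes, with the histone deacetylase Hdac2 at -1.82 (adjusted p = 0.000207) and the histone-binding Rbbp7 at -1.37 (adjusted p = 0.000119). Against ISC, Mta1, Chd4 and Gatad2b were lower in all 3 progenitor groups, for example Chd4, the remodelling subunit, by -1.40 in DBZ Sec-Pro (adjusted p = 0.00721), -2.19 in Rbpj Sec-Pro (adjusted p = 0.000598) and -1.47 in Ent-Pro (adjusted p = 0.00845). In all, 7 were lower and 0 higher in Rbpj Sec-Pro, 4 lower and 1 higher in DBZ Sec-Pro, and 3 lower and 0 higher in Ent-Pro. Of 8 measured partners from H3K9 methylation, 5 were lower in ENT than in Ent-Pro and 0 higher (20.2% and 18.5% of all genes), among them the heterochromatin protein Cbx5 (-1.69, adjusted p = 0.000657) and the methyltransferase Suv39h2 (-1.98, adjusted p = 0.000288). Against ISC, 4 were lower in DBZ Sec-Pro, 5 in Rbpj Sec-Pro and 3 in Ent-Pro, with 0 higher. Ehmt2, another H3K9 methyltransferase, was lower in Ent-Pro than in ISC (-1.29, adjusted p = 0.000954). It was lower in DBZ Sec-Pro (-1.11, adjusted p = 0.000966) and in Rbpj Sec-Pro (-1.57, adjusted p = 0.000154) too. Of the other methyl-CpG readers 3 were measured. Mbd4, which the demethylation list also holds, was lower in ENT than in Ent-Pro (-1.15, adjusted p = 0.00168), and Mbd4 and Mbd6 were lower than in ISC in Ent-Pro and both Sec-Pro groups, with Mbd6 at -0.87 in Ent-Pro (adjusted p = 0.0147), while Zbtb33 lay near background throughout.

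**Figure D5:**
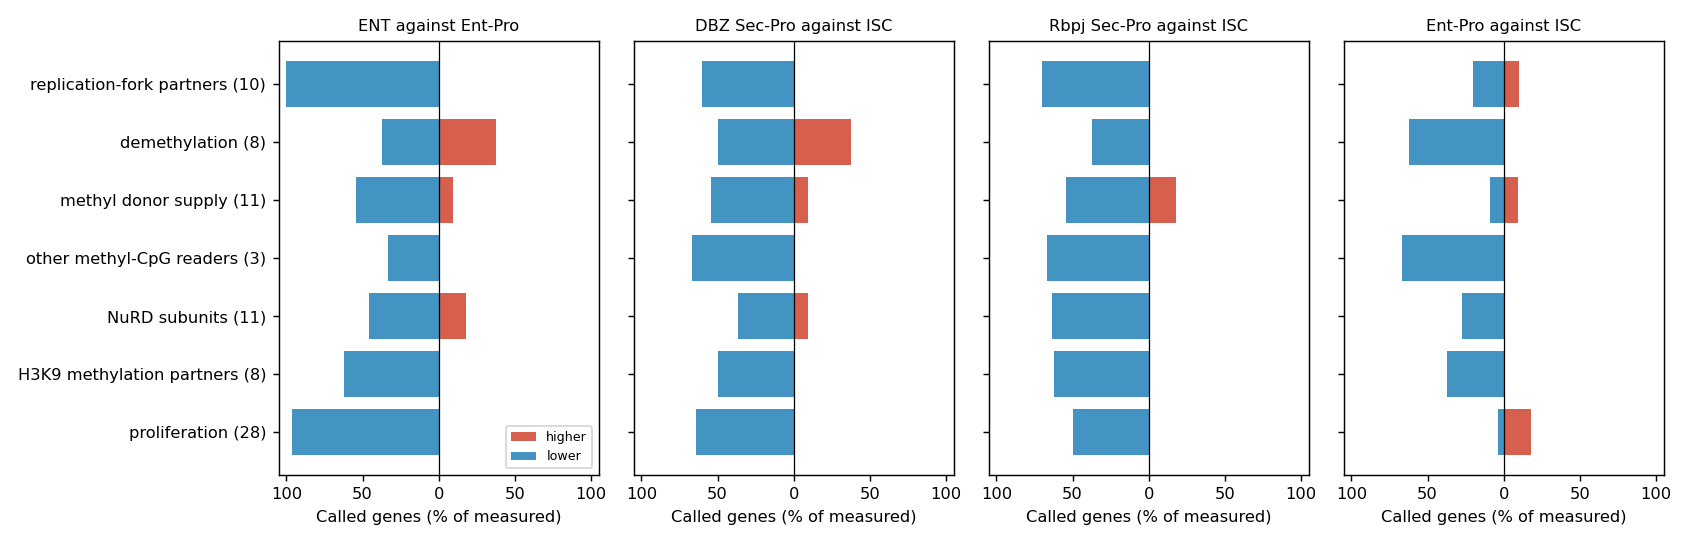
Share of the measured genes of each list (rows, number measured in brackets) that were called higher (red, to the right) or lower (blue, to the left) in 4 comparisons, as a percentage on both sides of 0. In ENT against Ent-Pro all 10 fork partners and 27 of 28 proliferation genes are lower, and in Ent-Pro against ISC 5 of 8 demethylation genes are lower.

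The genes whose levels ran most like each member over the 10 arrays were taken from the 8193 other genes that passed the F test. For Dnmt1 they were Rad54l, Nudc and Mrpl13 (r = 0.996 for Rad54l). For Uhrf1 they were Polr2h, Pold2 and Aatf (0.986 for Polr2h), and for Hells Plk4, Sgo1 and Ipo11 (0.992 for Plk4). For Dnmt3a they were Atg5, Fxr2 and Rfng (0.976 for Atg5), and for Dnmt3b Tnpo3, Ikbkb and Lrwd1 (0.992 for Tnpo3). For Mbd1 they were Rbm15b, Tssc4 and Mlec (0.977 for Rbm15b), and for Mbd3 Smarcc1, Ftsj1 and Itgb3bp (0.990 for Smarcc1). No gene appeared for more than 1 member.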

How the data were processed

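Total RNA of 10 samples was hybridised to Affymetrix mouse 430A 2.0 arrays. The files, as deposited, give a log2 value on each array for each of 22690 probe sets (lowest 2.90, highest 15.18), and array medians lay between 6.83 and 6.98. RMA and MAS5 are both named in the submitters' processing notes, which give neither a version nor say which of them made these values. The values were used as they stood. Names came from GEO's platform annotation, which gave a single symbol to 20393 probe sets, several symbols to 691 and no symbol to 1606. Only probe sets with a single symbol were used, 64 control probe sets were left out, and each gene was represented by its probe set with the highest mean, which gave 12393 genes.

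All 10 arrays entered 1 model with 5 group means in limma (version 3.58.1, R 4.3.3), with 5 residual and 3.75 prior degrees of freedom. Each of the 10 pairs of groups was tested, with Benjamini-Hochberg adjustment over all genes of a comparison and calls below 0.05. SE and 95% intervals come from the same fit. The fit was also run on simulated data with known changes as a check. Alternatives were median centring, cyclic loess, the mean of a gene's probe sets, leaving out the dimmest 25% of genes, a trended robust prior, a replicate block, adjustment over all comparisons, the compared groups alone, each array left out, and each other probe set.

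The members and the 12 gene lists (152 genes, 130 measured) were chosen with earlier results of these data known. All members are named. Of a list, up to 4 members with the smallest p in a comparison may be named, and likeness names the 3 genes with the highest Pearson r. Promoter windows are from RefSeq, GRCm38.p6.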

Additional observations from a re-analysis of the deposited data

How the results depend on the processing

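Of 58 member differences followed, 427 of 464 values under other settings kept direction and side of the threshold, as did 513 of 580 with 1 array left out and 32 of 71 by other probe sets. Counts of members called moved as follows, with the count by all arrays and the highest probe set in brackets. With the mean of a gene's probe sets they were 4 in Ent-Pro against ISC (1), 4 in ENT against DBZ Sec-Pro (7) and 0 in DBZ against Rbpj Sec-Pro (1). With the compared groups alone they were 5 in Ent-Pro against ISC (1), 0 in Rbpj Sec-Pro against Ent-Pro (4) and 0 in DBZ against Rbpj Sec-Pro (1). All genes called were then 3802 in Ent-Pro against ISC (3165), 705 in Rbpj Sec-Pro against Ent-Pro (3255), 2208 in ENT against Rbpj Sec-Pro (4437) and 97 in DBZ against Rbpj Sec-Pro (2036). With 1 array left out, members called ranged from 1 to 2 in Ent-Pro against ISC, 1 to 5 in Rbpj Sec-Pro against Ent-Pro, 1 to 4 in DBZ Sec-Pro against Ent-Pro, 4 to 7 in ENT against DBZ Sec-Pro and 0 to 1 in DBZ against Rbpj Sec-Pro. All genes called then ranged from 1704 to 3656 in Ent-Pro against ISC (3165), 824 to 3845 in Rbpj Sec-Pro against Ent-Pro (3255), 1045 to 2856 in DBZ Sec-Pro against Ent-Pro (2307), 2735 to 4283 in ENT against Rbpj Sec-Pro (4437) and 363 to 2742 in DBZ against Rbpj Sec-Pro (2036). These counts were lowest without Ent-Pro replicate 2 in the first pair and in Rbpj Sec-Pro against Ent-Pro, without Ent-Pro replicate 1 in DBZ Sec-Pro against Ent-Pro, without ENT replicate 1 in ENT against Rbpj Sec-Pro and without DBZ Sec-Pro replicate 2 in the last. In these fits a lone array is assumed to vary like the other groups.

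Under other settings and with 1 array left out, signs reversed mostly where the difference was small. Other probe sets also reversed larger differences that had passed. In DBZ against Rbpj Sec-Pro, cyclic loess gave -0.0115 for Dnmt1 and -0.019 for Uhrf1, and leaving out 1 array gave -0.22 to 0.31 for Dnmt1, -0.30 to 0.39 for Uhrf1 and -0.48 to 0.42 for Hells. Mbd2 in DBZ Sec-Pro against ISC was 0.0094 after median centring, 0.27 by the mean of probe sets and 0.58 by its second probe set, and with 1 array left out it reached 0.0348 without ISC replicate 2 and 0.085 without DBZ Sec-Pro replicate 2, and was -0.15 at lowest. Mbd2 in ENT against ISC ranged from -0.0192 without ISC replicate 1 to 0.116 without ISC replicate 2. Values by the probe set used are in brackets below. Other probe sets of Dnmt3a gave 0.13 in DBZ Sec-Pro against ISC (-1.61), 0.27 in ENT against ISC (-0.83), -0.15 and -0.62 in ENT against DBZ Sec-Pro (0.78) and -0.65 in ENT against Ent-Pro (0.78). Those of Mbd1 gave 0.61 in ENT against DBZ Sec-Pro (-0.69) and -0.27 and -0.18 in DBZ against Rbpj Sec-Pro (0.70). All of these had passed by the probe set used. That of Uhrf1 gave 0.19 in Ent-Pro against ISC (-0.38) and -0.0427 in DBZ against Rbpj Sec-Pro (0.045), which had not passed. The cause of these changes was not tested.

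The replicate numbers did not pair the samples (correlations of deviations -0.19 to 0.17). The replicate block left 7 members called over the 5 groups, and cost the calls of Mbd3 in DBZ Sec-Pro against ISC (adjusted p = 0.0564) and Uhrf1 in ENT against Rbpj Sec-Pro (adjusted p = 0.0533). Median centring of genes moved every ENT difference by 0.13 to 0.25. Of the genes called, it raised the share that were higher to 62.9% in ENT against ISC (45.4% as deposited), 76.6% in ENT against Rbpj Sec-Pro (58.7%), 69.1% in ENT against DBZ Sec-Pro (51.6%), 58.3% in ENT against Ent-Pro (47.8%) and 59.9% in Ent-Pro against ISC (47.3%), with 36.7% in DBZ Sec-Pro against Ent-Pro (47.5%). Cyclic loess gave 52.1% in Rbpj Sec-Pro against ISC (37.6%), 54.7% in DBZ Sec-Pro against ISC (44%) and 53.7% in Rbpj Sec-Pro against Ent-Pro (35.7%). No member's probe set used lay near background in any group.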
